A study of Drosophila melanogaster with 35 samples.

Results

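The RNA sites called for CLAMP on chromatin were compared between S2 cells, a male Drosophila melanogaster line, and Kc cells, a female line. CLAMP is a DNA-binding protein with zinc fingers that recognizes GA-rich sites and helps recruit the dosage compensation complex to the male X. The sites came from fractionated iCLIP, in which ultraviolet light links a protein to the RNA it touches, the protein is precipitated and the linked RNA fragments are sequenced. Every peak of both chromatin lists was taken, 1416 peaks from S2 and 874 from Kc, of 3235 peaks in the 5 lists of the series used here. Outside ribosomal DNA (rDNA) there were 843 S2 peaks and 235 Kc peaks, and these 1078 peaks are described below. The S2 chromatin group holds 4 CLAMP libraries and 2 no-antibody libraries, and the Kc chromatin group holds 4 CLAMP libraries and 1 no-antibody library. All were crosslinked at 254 nm, and no genotype or drug differs between the groups in the labels, so line and sex cannot be told apart. Both are established lines derived from embryos and resemble hemocytes, the blood cells of the fly.

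The authors gave 1 pooled list per group. In S2 chromatin, 4 of 4 CLAMP and 1 of 2 no-antibody libraries name the list in their labels, and in Kc chromatin 4 of 4 and 1 of 1 do. Which libraries entered each list was not given in the sources used here. Neither list holds read counts or replicates, and no control list was used, so depth is unknown and nothing here separates contact with CLAMP from background. Tests compare these 2 lists, with peaks taken as independent, and intervals cover counting error only. A larger amount of an RNA in 1 line and more contact per molecule cannot be told apart.

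Small RNAs made up much of both lists. Transfer RNAs carry amino acids to the ribosome. Small nucleolar RNAs (snoRNAs) guide chemical changes on other RNAs: C/D snoRNAs guide methylation of ribose and H/ACA snoRNAs guide the change of uridine to pseudouridine. Most fly snoRNAs are cut from introns of host genes, many of which encode ribosomal proteins. Small nuclear RNAs (snRNAs) form the core of the spliceosome, which removes introns from transcripts while they are often still on chromatin.

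The lists differed in how far they spread beyond rDNA. The 843 S2 peaks outside rDNA were 59.5% of the S2 list, and the 235 Kc peaks were 26.9% of the Kc list. The X rDNA block held 190 S2 and 210 Kc peaks, the scaffold of rDNA units 158 and 183, scaffolds without annotation 222 and 242, and other nuclear rRNA genes 3 and 4. Those numbers were close in both lines, whereas S2 had many more peaks elsewhere. Peaks outside rDNA were also narrower in S2, with a median of 34 nt against 41 nt in Kc. Of the S2 peaks, 544 (64.5%) were at least 30 nt wide, against 210 (89.4%) of the Kc peaks.

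Protein-coding sequence took a larger share of S2 peaks, and small non-coding RNAs took a larger share of Kc peaks. A peak was classed by its midpoint on its own strand. Coding sequence (CDS) held 210 S2 peaks (24.9%) and 18 Kc peaks (7.66%), an odds ratio of 4 with a 95% interval of 2.41 to 6.63 (two-sided Fisher's exact test, adjusted p = 8.10e-09 over 10 classes). This was the class whose odds ratio stayed above 1 and past the threshold of 0.05 under all 8 alternative settings. The 3' UTRs held 160 S2 peaks (19%) and 28 Kc peaks (11.9%), and the odds ratio was 1.73 (adjusted exact p = 0.0332). The 5' UTRs held 35 S2 peaks (4.15%) and 2 Kc peaks (0.851%), with an odds ratio of 5.05 (adjusted exact p = 0.0332). Restricted to peaks 30 nt wide or more, neither UTR class passed the test, with odds ratios of 1.49 for 3' UTRs (adjusted exact p = 0.208) and 4.38 for 5' UTRs (adjusted exact p = 0.0839).

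Exons of non-coding RNAs under 500 nt held 173 S2 peaks (20.5%, 17.9 to 23.4%) and 88 Kc peaks (37.4%, 31.5 to 43.8%), an odds ratio of 0.431 (adjusted exact p = 1.45e-06). That call was lost when scaffolds without annotation stayed in the total, where the odds ratio was 0.857 (adjusted exact p = 0.477). The other 6 classes did not pass the test in the main comparison. Introns held 57 S2 peaks (6.76%) and 27 Kc peaks (11.5%), an odds ratio of 0.559 (adjusted exact p = 0.0534). Introns passed in 4 of 8 alternatives, with odds ratios of 0.468 to 0.542 (adjusted exact p from 0.0319 to 0.0385). Transposable elements held 69 and 27 peaks (8.19% and 11.5%), an odds ratio of 0.687 (adjusted exact p = 0.173), and the mitochondrial genome held 45 and 19 (5.34% and 8.09%), an odds ratio of 0.641 (adjusted exact p = 0.173). Intergenic peaks numbered 54 in S2 and 15 in Kc (6.41% and 6.38%), peaks antisense to a gene 33 and 6 (3.91% and 2.55%), and peaks in longer non-coding RNA exons 7 and 5, with adjusted exact p of 1, 0.477 and 0.186. The intergenic shares depend on where the X rDNA block ends: with its end at the last rRNA gene, 142 of 931 S2 peaks and 102 of 322 Kc peaks were intergenic, an odds ratio of 0.388 (adjusted exact p = 4.65e-09).

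**Figure D1:**
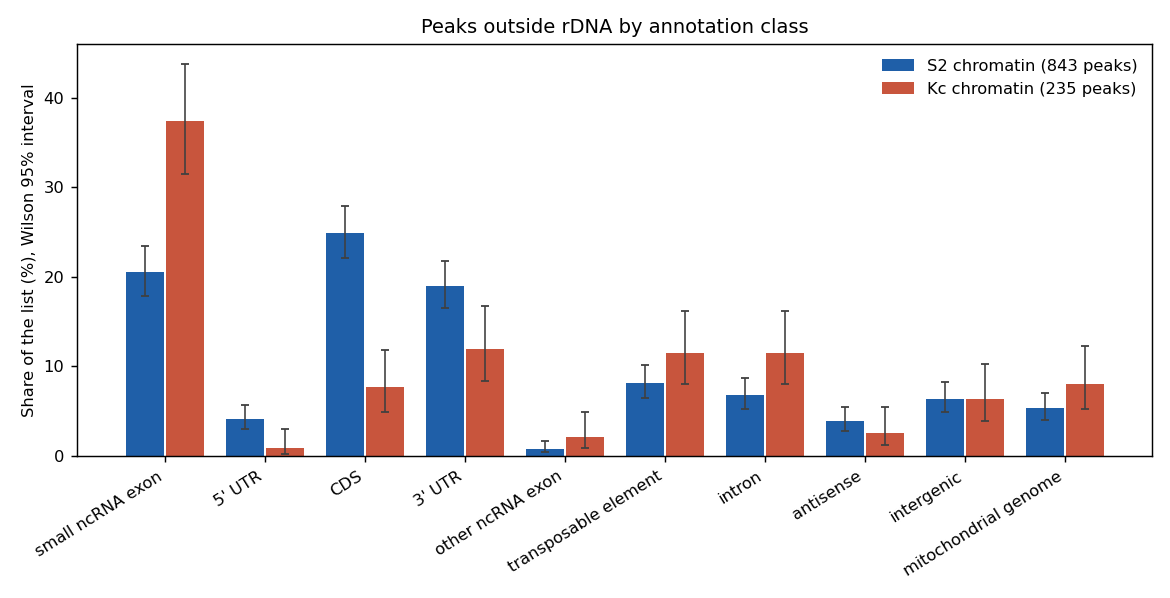
Share of peaks outside rDNA in each annotation class (percent of the list, bars with Wilson 95% intervals) for S2 chromatin (blue, 843 peaks) and Kc chromatin (red, 235 peaks). CDS stands at 24.9% in S2 and 7.66% in Kc, and small non-coding RNA exons at 20.5% in S2 and 37.4% in Kc.

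Outside rDNA, a smaller part of the sites than within it was called at the same place in both lines. Of the S2 peaks, 60 of 843 (7.12%, 5.57 to 9.05%) overlapped a Kc peak by at least 1 nt on the same strand, and 60 of 235 Kc peaks (25.5%, 20.4 to 31.5%) overlapped an S2 peak. The shares were 21.3% of S2 and 48.4% of Kc peaks with scaffolds without annotation kept, and 13.2% and 38.5% with the X rDNA block ended at its last rRNA gene. In the rDNA scaffold and the X rDNA block together, 266 of 348 S2 peaks (76.4%) and 267 of 393 Kc peaks (67.9%) did. The shared sites lay mostly in small RNAs and mitochondrial RNAs. In small non-coding RNA exons 32 of 173 S2 peaks (18.5%) and 33 of 88 Kc peaks (37.5%) were shared, and in the mitochondrial genome 16 of 45 and 16 of 19. With both of these classes left out, 12 of 625 S2 peaks (1.92%) and 11 of 128 Kc peaks (8.59%) were shared. In exons of protein-coding genes, 2 of 405 S2 peaks (0.494%) and 2 of 48 Kc peaks (4.17%) overlapped, both in 3' UTRs. None of the 210 S2 and 18 Kc peaks in CDS overlapped, with Wilson upper limits of 1.8% in S2 and 17.6% in Kc. The different list sizes bear on each of these shares, since a longer list offers more peaks to overlap.

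**Figure D2:**
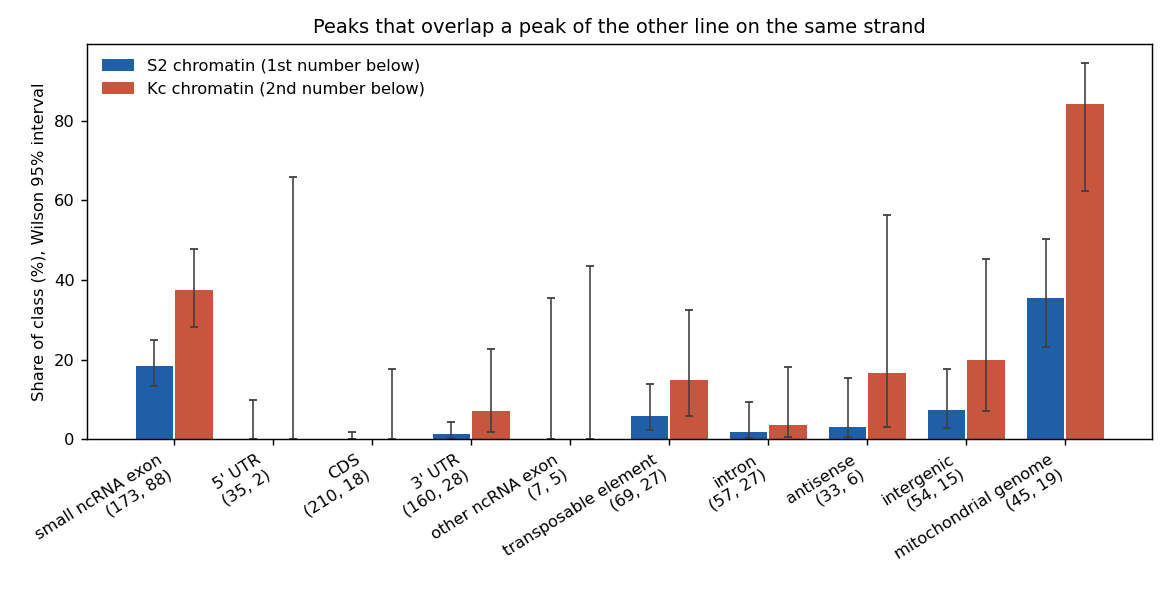
Share of peaks in each class (percent, Wilson 95% intervals) that overlap a peak of the other line on the same strand, with the numbers of S2 and Kc peaks under each class. In the mitochondrial genome 16 of 45 S2 peaks and 16 of 19 Kc peaks overlap, whereas in CDS 0 of 210 and 0 of 18 do.

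By gene, S2 chromatin peaks fell in 589 target genes and Kc chromatin peaks in 160, which together are 687 genes. Both lists held 62 of them (9.02%), S2 chromatin but not Kc chromatin held 527 (76.7%), and Kc chromatin but not S2 chromatin held 98 (14.3%). The 62 genes in both lists made up 10.5% of all S2 target genes and 38.8% of all Kc target genes. In 44 of them the peaks of the lines overlapped. The sharing depended on the type of RNA. Of the protein-coding genes, 17 were in both lists, which is 4.26% of the 399 in S2 and 25% of the 68 in Kc. Of the tRNA genes, 18 were in both, of 100 in S2 and 28 in Kc, and all 18 shared a position. Of the snoRNA genes, 12 were in both, of 36 in S2 and 41 in Kc, and all 12 shared a position. The snoRNAs were the type with at least 10 genes in which Kc, despite its shorter list, had more target genes than S2.

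**Figure D3:**
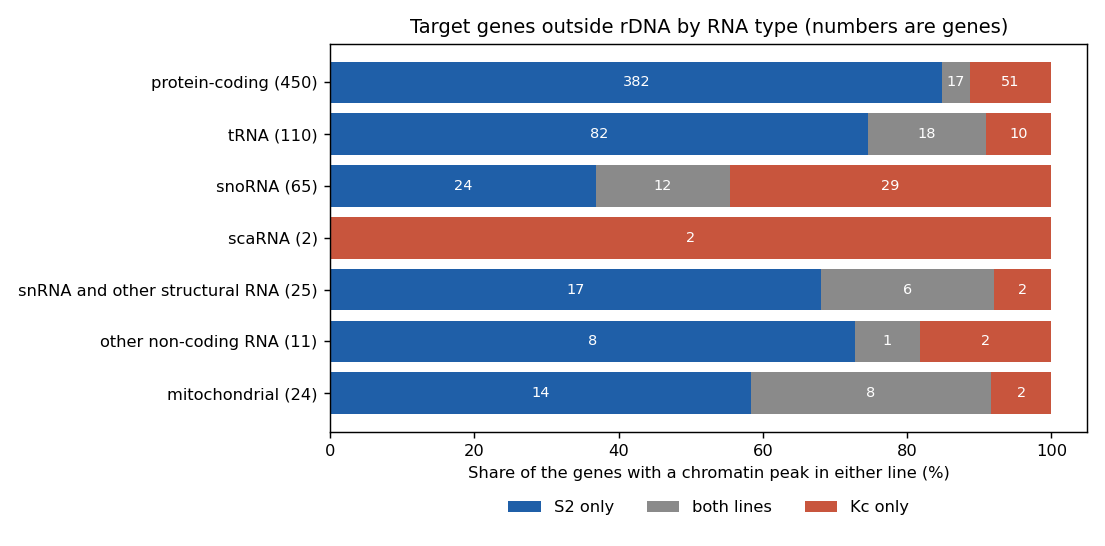
Genes with a chromatin peak in either line, by type of RNA (number of genes in brackets), divided into genes with peaks in S2 only, in both lines and in Kc only, as percent of each row. Of the protein-coding genes 382 had peaks in S2 only, 17 in both and 51 in Kc only, whereas of the snoRNA genes 24, 12 and 29 did.

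Transfer RNA peaks lay in the same part of the molecule in both lines. The midpoint was past the centre of the gene, on the 3' side, in 98 of 103 S2 peaks (95.1%, 89.1 to 97.9%) and in 28 of 28 Kc peaks (100%, 87.9 to 100%). Median positions along the gene were 0.746 in S2 and 0.732 in Kc, where 0 is the 5' end and 1 the 3' end. The peak ended within 2 nt of the end of the annotated gene in 91 of 103 S2 peaks (88.3%) and 25 of 28 Kc peaks (89.3%). The shared tRNA sites were alike almost to the base: in all 18 overlapping pairs the 3' ends were within 2 nt, and in 10 the 5' ends were too.

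Many anticodon families were called in 1 line only, mostly in S2, the longer list. Of 110 tRNA genes with a peak, 82 (74.5%) had S2 peaks only, near the 76.7% of all target genes. Kc peaks only were found in 10 (9.09%), against 14.3% of all target genes. Grouped by amino acid and anticodon, 29 nuclear tRNA families had a peak, 8 of them in both lines, 17 in S2 only and 4 in Kc only. The 8 in both were Ala-TGC, Asn-GTT, Asp-GTC, Glu-TTC, Phe-GAA, Pro-CGG, Ser-AGA and Ser-CGA. For Asn-GTT, 10 of 10 gene copies had a peak in S2 and 4 in Kc, and for Glu-TTC 6 of 6 copies did in S2 and 4 in Kc. All 7 Pro-AGG, all 6 Lys-TTT, all 6 Ser-GCT and all 4 Leu-CAA copies had a peak in S2 and none did in Kc. The Kc families absent from S2 were Met-CAT (3 of 6 copies), Thr-CGT (3 of 3), Ile-AAT (1 of 10) and Val-CAC (1 of 7). The initiator tRNA iMet-CAT, which starts translation, had a peak in 3 of its 6 copies in S2 and in 0 in Kc. Copies of a tRNA are near-identical, so reads from 1 copy may be called in several, and numbers of genes are not numbers of distinct RNAs.

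A few S2 tRNA peaks lay on the 5' side. There were 5 such peaks, and in 3 genes, His-GTG-1-5, Pro-AGG-1-4 and Pro-AGG-1-7, a peak on the 5' side stood beside a peak on the 3' side. Kc had 0 of 28 peaks on the 5' side.

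H/ACA snoRNAs were mostly Kc targets, and C/D snoRNAs were targets in both lines. Of 112 annotated H/ACA snoRNAs, 6 were S2 targets and 22 were Kc targets, with Psi28S-2622 and Psi28S-3342 in both. H/ACA peaks were 7 of the S2 peaks outside rDNA (0.83%) and 29 of the Kc peaks (12.3%). Of 109 annotated C/D snoRNAs, 26 had a peak in S2 and 17 in Kc, 8 of them in both. The 8 included U3:54Ab and U3:9B, copies of U3, which takes part in early cutting of the rRNA precursor. The 2 small Cajal body RNAs with a peak, PsiU2-55 and PsiU6-40, were in the Kc list. These RNAs guide changes on snRNAs, and both of their peaks were under 30 nt wide.

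The positions of peaks along H/ACA RNAs are given with few S2 peaks behind them. In S2, 6 of 7 midpoints (85.7%, 48.7 to 97.4%) were past the centre of the gene, against 13 of 29 (44.8%, 28.4 to 62.5%) in Kc. The first 20% of the gene held 0 of 7 S2 midpoints (Wilson upper limit 35.4%) and 12 of 29 Kc midpoints (41.4%, 25.5 to 59.3%). The intervals of the lines overlap in both measures, and the positions were not tested. In the H/ACA RNAs of both lists the overlapping peaks had nearly the same midpoint, 0.849 in S2 and 0.856 in Kc for Psi28S-2622, and 0.429 in S2 and 0.423 in Kc for Psi28S-3342, which had a further Kc peak at 0.123. An H/ACA snoRNA folds into a pair of hairpins, and 7 of the 22 Kc genes had 2 peaks. In 5 of these, Or-aca3, Psi18S-1295, Psi18S-1854a, Psi28S-1135e and Psi28S-291, there was a peak on each side of the centre. In C/D snoRNAs, 0 of 27 S2 peaks and 0 of 18 Kc peaks had their midpoint in the first 20% of the gene. The C/D genes had a median length of 81 nt in S2 and 81.5 nt in Kc, and the peaks a median width of 36 and 47.5 nt. A peak of that width within so short a gene cannot have its midpoint there. These zeros therefore cannot be set against the H/ACA positions.

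**Figure D4:**
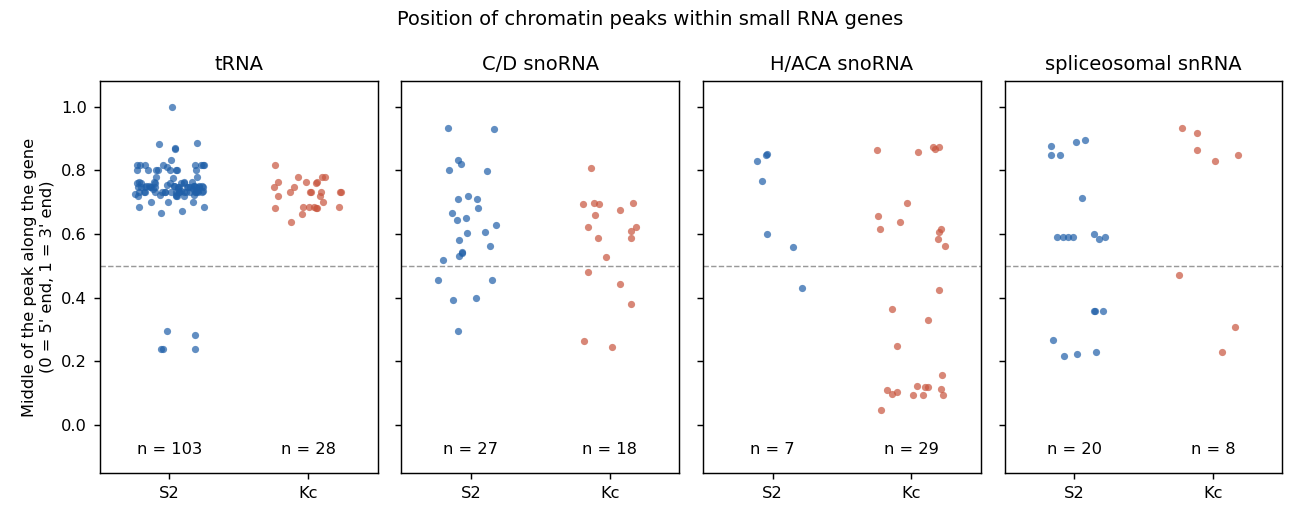
Midpoint of each chromatin peak along its gene (vertical axis, 0 at the 5' end and 1 at the 3' end; dashed line at the centre) in tRNAs, C/D snoRNAs, H/ACA snoRNAs and spliceosomal snRNAs, with S2 peaks left of Kc peaks and sideways spread added for visibility. Transfer RNA peaks cluster past the centre in both lines (medians 0.746 in S2 and 0.732 in Kc), and 12 of 29 Kc H/ACA peaks lie in the first 20% of the gene, where S2 has 0 of 7.

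Host genes were set beside their snoRNAs. In S2, 25 of 36 snoRNAs with a peak lie within a host gene, in 15 hosts. In Kc, 38 of 43 snoRNAs and small Cajal body RNAs do, in 26 hosts. The host had a peak of its own in the same list for 5 of 15 S2 hosts (RpL27A, RpL3, RpS12, eEF1alpha1 and pAbp) and 1 of 26 Kc hosts (RpL15). Those are 33.3% and 3.85%, near the shares over all 91 annotated hosts, of which 23 (25.3%) had an S2 peak and 4 (4.4%) a Kc peak. Several snoRNAs called in Kc have a host whose own transcript was called in S2. Hrb98DE, an hnRNP gene, hosts Psi28S-3305a, Psi28S-3305c and Psi28S-3405d, which had Kc peaks and no S2 peak, whereas Hrb98DE itself had 2 S2 peaks and 0 Kc peaks. The same held for Or-aca3 in RpL4, Psi28S-2149 in RpS7 and Psi28S-2996 in RpL5, and each of these hosts had 2 S2 peaks. In all, 9 of the 26 hosts of Kc-bound RNAs (34.6%, 19.4 to 53.8%) had an S2 peak, against 23 of all 91 annotated hosts (25.3%, 17.5 to 35.1%), so the intervals overlap. The non-coding host gene Uhg5 held most snoRNAs with peaks in each list, 5 in S2 and 4 in Kc.

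Spliceosomal snRNAs had peaks in 18 genes in S2 and 7 in Kc, of 28 annotated. U2, which pairs with the branch point of introns, was the family most shared: 6 of 6 copies had a peak in S2 and 4 in Kc. In U2:34ABa and U2:34ABb the peaks of the lines overlapped, and in U2:38ABa and U2:38ABb they lay 41 and 36 nt apart. U1, which pairs with the 5' splice site, had peaks in 4 copies in S2 and in another copy, U1:82Eb, in Kc. Of the U1 genes with an S2 and no Kc chromatin peak, U1:21D, U1:95Ca and U1:95Cb had a peak in the nucleoplasm list of both lines. U4 had peaks in 2 copies and U6 in 3 copies in S2, with 0 in Kc. In U2:14B, U2:34ABa, U2:34ABc, U2:38ABa and U2:38ABb the S2 peak was 22 or 23 nt wide and began 101 or 102 nt into the gene. The U6 peaks were each 27 nt wide and began 25 nt into the gene. As with tRNAs, reads from 1 copy may be called in several, which was not tested, so numbers of copies are not numbers of distinct sites. Among other structural RNAs, both 7SL genes (the RNA of the signal recognition particle, which directs proteins to the endoplasmic reticulum) and RNaseMRP:RNA (the RNA of an rRNA-processing enzyme) had S2 peaks and no Kc peak. The 7SK gene 7SKa, whose RNA restrains transcription elongation, had 1 peak in each line, and the peaks stood 6 nt apart.

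Across the 61 overlapping pairs, the 3' ends coincided more often than the 5' ends. The 3' ends were within 2 nt in 38 pairs and the 5' ends in 16, and 3 pairs had the same start and end. Of these 38 pairs, 18 lay in nuclear tRNAs and 10 in mitochondrial RNAs. The 3' ends were within 2 nt in 4 of 12 snoRNA pairs and in 6 of 8 pairs without a gene, and the 5' ends in 2 of each. In the 3 snRNA and 3 protein-coding pairs neither end was within 2 nt. The shorter peak lay wholly within the longer in 43 pairs. The Kc peak was the wider in 43 pairs and the S2 peak in 14, with median widths of 36 nt in S2 and 43 nt in Kc. In the 18 tRNA pairs the Kc peak was the wider in 15 and the S2 peak in 1.

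**Figure D5:**
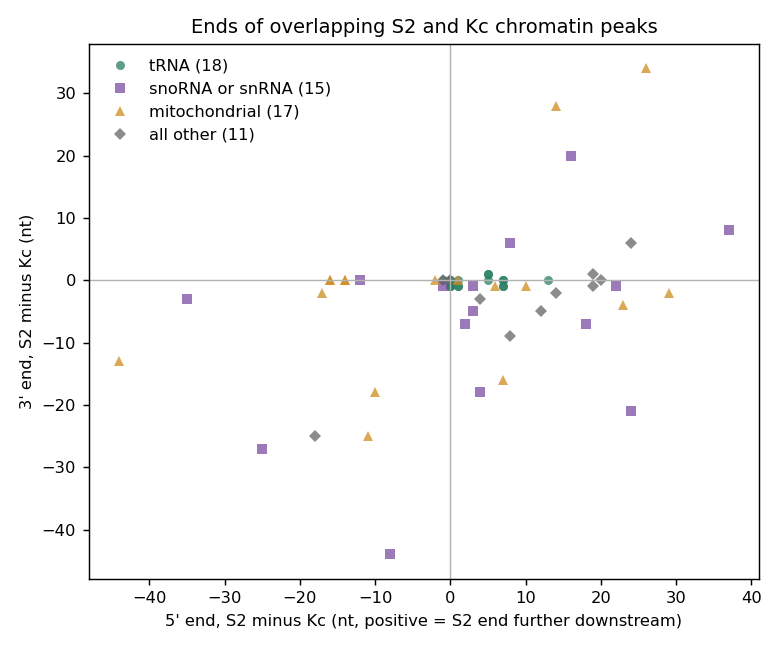
Difference between the ends of overlapping S2 and Kc peaks (nt, S2 minus Kc, positive where the S2 end lies further downstream), with the 5' end on the horizontal and the 3' end on the vertical axis, for 61 pairs by type of RNA. In transfer RNA pairs the 3' ends differ by at most 1 nt and the 5' ends by up to 13 nt.

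Messenger RNAs that had peaks in both lines seldom had them at the same site. Of the 17 protein-coding genes in both lists, 3 had overlapping peaks. In pAbp, the gene of the poly(A)-binding protein, S2 had 7 peaks and Kc 1, and the overlap was 21 nt in the 3' UTR. In larp, which encodes a La-related RNA-binding protein, S2 had 3 peaks (5' UTR, CDS and 3' UTR) and Kc 1, and the 3' UTR peaks at 3R 28319603 to 28319628 in S2 and 3R 28319578 to 28319610 in Kc overlapped by 8 nt. In CG1909 on chromosome 4, an intronic S2 peak of 47 nt (586257 to 586303) lay inside a Kc peak of 54 nt (586253 to 586306). The S2 peak that overlapped was 27 nt wide in pAbp and 26 nt in larp. At 30 nt or more, CG1909 alone of the 3 kept a shared position. Of the 7 S2 peaks in pAbp, 1 was at least 30 nt wide.

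In the other 14 genes the nearest S2 and Kc peaks were 67 to 13859 nt apart (median 1818 nt), under 100 nt in 2 genes and over 1000 nt in 8. These distances are along the genome and count any introns between the peaks, so they can exceed those on the messenger RNA. The gene aqz had 4 S2 peaks and 2 Kc peaks, all 6 in the 3' UTR, and the nearest pair was 67 nt apart. In Vha26, which encodes a subunit of the vacuolar proton pump, 2 S2 peaks and 1 Kc peak lay in the 3' UTR, the nearest 77 nt apart. In sqd, an hnRNP gene, S2 had 1 peak and Kc 5, again all in the 3' UTR, and the Kc peak nearest to the S2 peak was 437 nt from it. In the actin gene Act5C, 1 S2 peak and 1 Kc peak in the 3' UTR were 189 nt apart. Both lines thus had 3' UTR peaks in these transcripts, at different positions. The S2 peak in sqd (23 nt) and the Kc peak in Act5C (21 nt) were under 30 nt wide. In eIF3c and kst each line had 1 CDS peak, 2316 nt apart in eIF3c, a translation initiation factor, and 6744 nt apart in kst, a spectrin gene. The S2 peaks of eIF3c (23 nt) and kst (24 nt) were under 30 nt wide too. The nearest peaks in the insulin receptor gene InR, in its 3' UTR in S2 and its CDS in Kc, were 1319 nt apart.

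Genes called in 1 line are given by the part of the transcript that held their peaks. Of the 382 coding genes with an S2 and no Kc peak, 176 (46.1%, 41.1 to 51.1%) had all their peaks in CDS and 43 (11.3%, 8.47 to 14.8%) had all in introns. Of the 51 with a Kc and no S2 peak, 14 (27.5%, 17.1 to 40.9%) had all in CDS and 22 (43.1%, 30.5 to 56.7%) all in introns. All peaks lay in 3' UTRs for 116 of the S2 genes (30.4%, 26 to 35.2%) and 13 of the Kc genes (25.5%, 15.5 to 38.9%), and in 5' UTRs for 23 (6.02%) and 2 (3.92%). These counts follow the same peaks as the class shares above and were not tested. Among them, lola, which encodes a BTB zinc-finger transcription factor, and sli, which encodes the axon guidance ligand Slit, had 2 intronic Kc peaks each and no S2 peak. Introns holding a peak had a median length of 3826 nt in S2 (57 peaks in 52 genes) and 7377 nt in Kc (27 peaks in 25 genes). By midpoint, 9 of 57 S2 intron peaks and 6 of 27 Kc intron peaks lay within 100 nt of a splice site. Among these, the S2 peaks in Prosalpha2, RpL11, capt and zda were wider than their intron and reached past both its ends. So was the Kc peak in RpL23, 89 nt wide in an intron of 68 nt. Such peaks are called intronic by their midpoint only, and RpL23 is among the Kc genes counted above with all peaks in introns.

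Within messenger RNAs the S2 peaks were spread along the coding sequence. For this each peak was placed on 1 transcript of its gene, which moved a few peaks between UTR and CDS and gave 211 CDS and 161 3' UTR peaks in S2. With each CDS cut into 3 equal parts, the first held 68 S2 peaks, the middle 72 and the last 71. For Kc the numbers were 5, 4 and 9. Of the peaks in 3' UTRs, 73 of 161 in S2 (45.3%) and 14 of 28 in Kc (50%) lay nearer to the end of the transcript than to the stop codon. Around exon junctions the share of peaks was at or below the share of bases. In S2, 44 of 392 peaks (11.2%) were within 50 nt of a junction, where 14.8% of the bases of those messenger RNAs lie. In Kc, 7 of 48 (14.6%) were, and so were 14.6% of the bases. Peaks with their midpoint in an intron took no part in these counts, also where they reached into exons.

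Messenger RNAs of the translation machinery and of the extracellular matrix were among the S2 targets. Of 93 annotated ribosomal protein genes, 23 had an S2 peak and 4 a Kc peak. RpL5 and RpS7 had 2 CDS peaks each in S2, and RpL8 had 1 in its CDS and 1 in its 5' UTR. Of 56 translation factor genes, 11 had an S2 peak, among them eEF1alpha1 with 2 CDS peaks, and 2 (eIF3c and pAbp) had a Kc peak. Of 19 hemocyte genes, 8 had an S2 peak and 0 a Kc peak: the laminin genes LanA, LanB1 and LanB2, the collagen gene vkg, the matrix genes Ppn and Tig, the engulfment receptor gene drpr and the hemocyte lectin gene Hml. LanA had 2 peaks, LanB1 3 and LanB2 3. All 3 LanB2 peaks and 2 of the 3 LanB1 peaks were under 30 nt wide. Muscle, neuron and germline markers had 0 of 9, 0 of 10 and 0 of 9 members with a peak in either chromatin list. Among all 18358 annotated genes other than transposable elements, 589 were S2 targets and 160 were Kc targets. At such shares a list of 9 or 10 genes can well hold 0, so these zeros say little. S2 target genes numbered 589 against 160 in Kc, so an S2 excess in a list is the usual case: 76.7% of all target genes had S2 peaks only.

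Other groups were read against the same background. Of 30 hnRNP and splicing regulator genes, 7 had an S2 peak and 3 a Kc peak, with ps and sqd in both and the polypyrimidine tract-binding gene heph in Kc only. Of 18 heat shock genes, Hsc70-3, Hsc70-4 and Hsp83 had 1 S2 peak each and 0 Kc peaks. Of 20 cytoskeleton genes, 6 had an S2 peak and 2 a Kc peak, which were Act5C and kst. Replication-dependent histones (111 genes) and core spliceosome proteins (18 genes) had 0 members with a peak in either list. With 589 S2 and 160 Kc targets among 18358 annotated genes, 0 of 18 is not unusual. How reads that map to several places were treated was not given, which bears on genes in many copies such as the histones.

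Dosage compensation and sex determination genes contributed few peaks. Of 11 dosage compensation genes, roX2 and Unr had 1 S2 peak each and 0 Kc peaks. The roX RNAs are part of the male dosage compensation complex, and the roX2 peak (X 11580083 to 11580105) was 23 nt wide. Unr, a repressor of translation of the dosage compensation gene msl-2 in females, had a 3' UTR peak of 39 nt. Of 15 sex determination genes, fru had 1 S2 peak, 27 nt wide, and 0 Kc peaks. Of 18 genes for GAGA-site, insulator and Polycomb proteins, Cp190 had 1 CDS peak in S2, and lola is the gene with Kc peaks. These numbers are too small to compare the lines. The X chromosome held 123 S2 peaks outside rDNA (14.6%) and 30 Kc peaks (12.8%). The Y chromosome held 8 S2 peaks and, although Kc is labelled female, 2 Kc peaks, both intergenic, of which 1 overlapped an S2 peak. How reads that map to several places were treated was not given, so whether these reads came from the Y cannot be told.

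Among other non-coding RNAs, 1 was found in both lists. In CR42862, a longer RNA, S2 had 1 peak and Kc had 3, the nearest 218 nt apart. CR34335, a transcript under 500 nt from within the X-linked gene DIP-alpha, had 3 S2 peaks and 0 Kc peaks.

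Copia, a retrotransposon, held 21 of the 27 Kc element peaks and 18 of the 69 S2 element peaks, and the other S2 peaks came from more families. The retrotransposon 297 had 19 S2 peaks in 16 insertions and 0 Kc peaks. Of these, 6 peaks of 34 nt had their midpoint 288 to 289 nt from the 5' end of the insertion. A further 7 peaks of 34 nt had it 126 nt from the 3' end. The repeats at both ends are near-identical, so both sets may mark the same place in the repeat, called in several copies, which was not tested. All 7 diver peaks, in S2, had their midpoint 3651 nt into their insertion. Roo had 4 S2 peaks and blood 3, with 0 in Kc for both, and jockey had 0 in S2 and 3 in Kc. The copia peaks of each line lay in 16 insertions, of which 10 were in both, and 4 peaks of each list overlapped. From the 5' end of the element, S2 copia peaks lay at 165 to 173 nt (4), 357 to 541 nt (7), 2697 nt (2) and 4421 to 5056 nt (5). Kc copia peaks lay at 161 to 166 nt (6), 2097 to 2765 nt (11) and 4415 to 5030 nt (4). The repeats that flank such elements and their many copies are near-identical, so the insertion a read came from cannot be told.

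Among the annotation classes outside rDNA, mitochondrial RNAs gave the highest share of common sites. The large and small mitochondrial rRNAs held 18 S2 peaks and 11 Kc peaks, 11 and 7 in mt:lrRNA and 7 and 4 in mt:srRNA. All 4 Kc peaks in mt:srRNA and 6 of 7 in mt:lrRNA overlapped an S2 peak. Of 22 mitochondrial tRNAs, 6 had a peak in both lines, 7 in S2 only and 2 in Kc only, and in all 6 the peaks overlapped. Mitochondrial messenger RNAs had 10 S2 peaks, in 7 genes including mt:ATPase6 with 3, and 0 Kc peaks. These RNAs are made inside mitochondria and not on nuclear chromatin. With mitochondrial peaks left out, 44 of 798 S2 peaks (5.51%) and 44 of 216 Kc peaks (20.4%) overlapped.

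The nucleoplasm lists were short outside rDNA, with 42 peaks in 37 target genes in S2 and 109 peaks in 95 target genes in Kc, and this limits how many chromatin targets they can hold. Of the 527 genes with S2 and no Kc chromatin peaks, 18 had a peak in S2 nucleoplasm and 26 in Kc nucleoplasm. Of the 98 genes with Kc and no S2 chromatin peaks, 1 had a peak in S2 nucleoplasm and 8 in Kc nucleoplasm. Of the 62 genes in both chromatin lists, 11 had a peak in S2 nucleoplasm and 11 in Kc nucleoplasm, 5 of them in both. Of the 26 genes with S2 and no Kc chromatin peaks that Kc nucleoplasm held, 12 were tRNAs and 7 were protein-coding. The 7 included fru, sty and RpL41. The rest were 3 snRNAs, 2 snoRNAs and 2 mitochondrial tRNAs.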

How the data were processed

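CLAMP was precipitated from S2 and Kc chromatin, and the authors deposited 1 peak list per line, with start, end and strand. Each deposited score equalled 0, so scores were not used. Per the submitters' processing notes, reads were handled with STAR 2.5.2b-2, cutadapt 3.5, FastQC and UMI-tools on build dm6. Per the labels' protocols, barcodes were 4 nt long and libraries had 31 PCR cycles. The peak caller, its threshold and the treatment of reads that map to several places were not given in the sources used here.

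Coordinates are 1-based on dm6. Peaks were placed on Ensembl release 115 genes with scipy 1.17.1 and numpy 2.4.6 in Python 3.11.15, and matplotlib 3.10.9 drew the plots. Each peak took the first class found at its midpoint on its strand, in the order of the plot of class shares, with rRNA exons after small RNAs, and went to 1 gene, exons before introns. Peaks in transposable elements went to no gene. Left out as rDNA were the rDNA scaffold, whose name differs in the annotation and was matched by inference, X 23200802 to 23538283, and nuclear rRNA genes. Scaffolds without annotation were left out too. Class shares were compared by two-sided Fisher's exact tests with Benjamini-Hochberg adjustment over 10 classes, and intervals are Wilson 95% intervals. The placement code was run again on the peaks themselves, cut to their middle base or moved to the other strand. Tests were run on lists drawn at set CDS shares from the pooled peaks. Those draws were independent, so they do not check the tests for dependent peaks such as copies of a tRNA. Members, the 19 gene lists and tests were chosen with earlier results of these data known. Named genes were coding genes with a shared position, the 10 with most peaks in 1 line and none in the other, all dosage compensation and sex determination genes with a peak, and up to 4 of each other list (63 genes). Other names, and the descriptions of anticodon families, host genes, peak ends and element offsets, were chosen after values were seen.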

Additional observations from a re-analysis of the deposited data

Results flagged for a closer look

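Scaffolds without annotation, which took no part in the comparisons, held 222 S2 chromatin peaks and 242 Kc chromatin peaks. They were flagged because they are a signal outside the main measurement, with no control list to set beside them. The peaks lay on 63 scaffolds in S2 and 58 in Kc, 48 of them in both. Of these peaks, 167 of 222 in S2 (75.2%) and 171 of 242 in Kc (70.7%) overlapped a peak of the other line, shares close to those in the rDNA scaffold (70.9% in S2 and 62.8% in Kc). Whether the scaffolds hold rDNA was not tested.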

How the results depend on the processing

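No paired analysis was possible because each line has 1 pooled list, and no replicate could be left out for the same reason. Counting peaks of identical sequence once, and sharing by sequence, were not run, since no genome was used here. The odds ratio for antisense peaks stayed on its side of 1 and of the threshold in all 7 alternatives it had, and that for CDS in all 8. Among peaks of at least 30 nt the odds ratios (S2 over Kc) were 4.38 for 5' UTRs and 1.49 for 3' UTRs, both calls lost, 0.468 for introns, now past the threshold, and 0.761 for intergenic peaks, against 1 in the main comparison. Introns also passed with peaks within 50 nt merged (0.542), without mitochondrial peaks (0.538) and, chosen after seeing the data, with copies counted once (0.512). Under these 3 the intergenic odds ratio was 0.978, 0.973 and 0.937. With copies counted once the calls for 5' UTRs (4.77) and 3' UTRs (1.65) were lost. With strand ignored, other non-coding RNA exons passed (0.194). With scaffolds without annotation kept, the small RNA call was lost (0.857), transposable elements turned to 1.15 and mitochondrial peaks to 1.06. Ending the X rDNA block at its last rRNA gene, chosen after seeing the data, turned intergenic peaks to 0.388, which passed. Shared positions moved to 9.38% of S2 peaks at 30 nt or more, to 21.3% of S2 and 48.4% of Kc peaks with scaffolds without annotation, to 13.2% and 38.5% with the shorter X block, and to 5.51% of S2 and 20.4% of Kc peaks without mitochondrial peaks. The causes were not tested. Counts of target genes in both lines, S2 only and Kc only stayed within 1.5 times of 62, 527 and 98 under all 6 alternatives, at 48 to 89, 368 to 556 and 80 to 147. Depth is unknown, so a site absent from a list cannot be told from one too shallow to call.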
